A study of Mus musculus with 47 samples.

Results

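The cytosolic ribosomal protein genes were examined across hippocampal libraries from young and old mice of both sexes, taken from the home cage or after sepsis. They were chosen by symbol: a gene whose symbol starts with Rpl or Rps and a digit, or is Rpsa, Rplp0, Rplp1 or Rplp2, without pseudogene rows marked -ps and without the S6 kinases. A mean of at least 5 CPM (read counts that the authors scaled to the size of each library) over all 47 libraries was also required. The rule matched 92 symbols and kept 82 genes, of 28032 genes in the table and 11691 that reached the same mean. By symbol, 46 belong to the large subunit and 36 to the small subunit. The mean level chose the members, so levels are given as a description. The 2 members closest above the minimum were Rps12 at 5.67 and Rps13 at 6.03 CPM, and the 2 rows closest below it were Rpl36a at 4.41 and Rpl27 at 4.24 CPM. In 80 of the 82 members every group mean was at least 5 CPM. Rps19bp1 carries an Rps symbol but encodes a protein that binds a ribosomal protein, and it was kept because the rule keeps it.

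The libraries came from C57BL/6 mice of 3 to 5 months (young) or 18 to 22 months (old). For each age and sex there were controls taken directly from the home cage, mice 1 day after cecal ligation and puncture (CLP, a surgical model of abdominal sepsis) and mice 4 days after it. Each library came from 1 hippocampus. All groups had 4 libraries except old females on day 4, which had 3. Septic mice also received anesthesia, laparotomy, buprenorphine, the antibiotic imipenem and daily restraint, none of which the controls received, so these cannot be told apart from sepsis. The day 4 groups hold only mice that lived to that day. By then the authors report deaths among old mice of both sexes and none among young mice. In comparisons that use old day 4 mice, selection of survivors therefore cannot be told apart from sepsis or age.

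Ribosomal proteins and ribosomal RNA form the small subunit, which decodes mRNA, and the large subunit, which joins amino acids. The P-stalk proteins Rplp0, Rplp1 and Rplp2 recruit translation factors to the large subunit. Ribosomal protein mRNAs typically start with a tract of pyrimidines, the 5′ TOP motif, through which the kinase mTORC1 sets how strongly they are translated. Their genes are also the most frequent source of processed pseudogenes in mammals, so each has many near-identical copies elsewhere in the genome.

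These copies bear on every value given here, and the coding stretches that follow show why. They are the first 60 coding bases of 3 genes, each beside its copy with the highest level in the table, read from GENCODE M21 transcripts (GRCm38), with capitals only where gene and copy differ. Rpl28 lies at chr7:4792874-4795066 on the plus strand, and Rpl28-ps1, a processed pseudogene, at chr1:128038569-128038982 on the plus strand. Rpl3 lies at chr15:80077791-80091868 on the minus strand, and its processed pseudogene Rpl3-ps1 at chrX:13202571-13203780 on the plus strand. Rpl10 lies at chrX:74270812-74273135 on the plus strand, and Rpl10-ps3 at chr9:50344201-50344968 on the minus strand.
Rpl28: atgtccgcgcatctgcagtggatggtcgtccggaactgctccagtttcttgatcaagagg
Rpl28-ps1: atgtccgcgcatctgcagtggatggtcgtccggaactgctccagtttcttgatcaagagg
Rpl3: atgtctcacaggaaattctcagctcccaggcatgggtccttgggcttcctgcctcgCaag
Rpl3-ps1: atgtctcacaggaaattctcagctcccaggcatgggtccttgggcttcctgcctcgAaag
Rpl10: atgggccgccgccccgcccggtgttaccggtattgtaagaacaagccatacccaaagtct
Rpl10-ps3: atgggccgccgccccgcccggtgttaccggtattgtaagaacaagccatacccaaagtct
Over the whole coding sequence, Rpl28 and Rpl28-ps1 differed at 0 of 411 bases, Rpl10 and Rpl10-ps3 at 0 of 642, and Rpl3 and Rpl3-ps1 at 2 of 1209. A coding read from Rpl28 or Rpl10 fits the row of its copy equally well, and for Rpl3 only reads over the 2 differing bases can tell the rows apart. Rpl28 itself was listed at a mean of 10.9 CPM and Rpl28-ps1 at 146 CPM, and Rpl3 at 89.3 CPM beside 410 CPM for Rpl3-ps1. Rpl10, a core large-subunit protein, was listed at 4.12 CPM and so was no member, while Rpl10-ps3 was at 135 CPM. Rps27 was below the minimum at 1.79 CPM, and Rps27rt, a copy with the same coding sequence over 252 bases, is a member at 116 CPM.

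Summed over 85 families of gene and copies, 45.8% of the mean CPM stood in copy rows, 5445 CPM beside 6450 CPM in the rows of the matching symbols. In 37 families the copies held more than 50% of it. This share was 43.3% to 48.2% in every library. In old males it was 45.81% to 47.66% in controls, 46.85% to 47.71% on day 1 and 43.85% to 45.03% on day 4. The old male day 4 libraries thus lay below all control and day 1 libraries of that age and sex. In every other pairing of a septic group with its control, the ranges overlapped. For each comparison with called members, the number also called when rows were summed with their copies is therefore given, an alternative chosen after seeing the data.

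Levels per length differed widely between members. Per kilobase of annotated transcript, Rps15 had the highest mean (644 CPM per kb), followed by Rplp1 (328 CPM per kb) and Rpl41 (326 CPM per kb). The lowest were Rpl12 (5.27 CPM per kb), Rps20 (6.03 CPM per kb) and Rps13 (6.33 CPM per kb). These are levels of the rows alone. Copy rows held 93.1% of the summed level of the Rpl12 family and 91.9% of that of Rps13, while Rps20 had no copy rows. Length was the median over the annotated protein-coding transcripts of a gene, whichever of them is expressed. The 82 rows together held 0.530% to 0.992% of the CPM of a library.

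The summed level of the 82 genes overlapped between control and septic libraries in 7 of the 8 pairings of a septic group with its control. In young male controls the 4 sums were 5394, 7255, 5400 and 8483 CPM, and in young female controls 5672, 8849, 5731 and 6256 CPM. The distance from the lowest to the highest library was wider in these 2 groups than in any of the others. Old male controls ranged from 5734 to 6956 CPM, old males on day 1 from 5890 to 6446 CPM and old males on day 4 from 6118 to 8038 CPM. Old female controls ranged from 5952 to 6964 CPM, and old females on day 4 from 7107 to 7634 CPM, above every control. The sum is a score over chosen genes and was not tested.

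**Figure D1:**
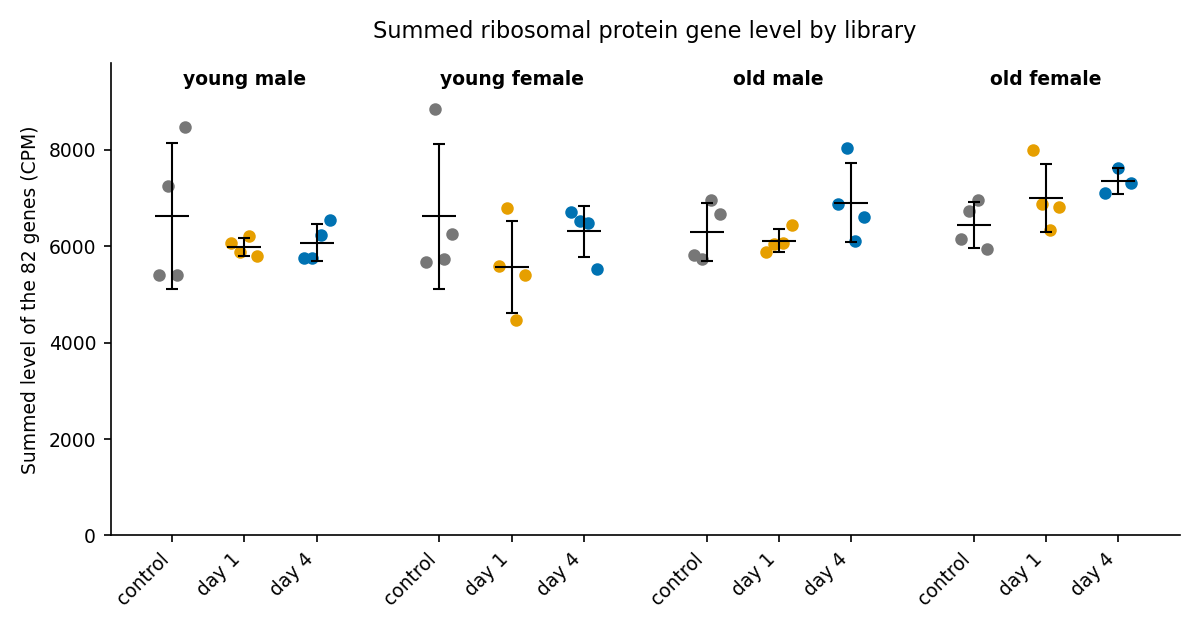
Summed level of the 82 ribosomal protein genes in CPM (y axis, from 0) in each of the 47 libraries (points) by age, sex and condition (x axis), with group mean and SD (bars). Young controls of both sexes scatter most, and the 3 libraries of old females on day 4, at 7107 to 7634 CPM, lie above the 4 old female controls.

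Libraries differed in ways that the labels do not give. A library labelled young male day 4 replicate 3 had Xist at 278 CPM, where the other male libraries had at most 0.158 CPM and female libraries 93.4 to 505 CPM, and Ddx3y at 0 CPM where other male libraries had at least 10.8 CPM. Called changes and counts that use it are given with and without it. In young male controls, 71 and 79 of the 82 genes lay above the group mean in replicates 2 and 4, and 3 and 11 did so in replicates 1 and 3. In replicates 2 and 4, nuclear long RNAs summed to 3381 and 3230 CPM, against 5112 and 4320 CPM in replicates 1 and 3. Their mitochondrially encoded mRNAs were at 48430 and 52128 CPM, against 26825 and 26146 CPM, and their erythroid markers at 614 and 621 CPM, against 220 and 222 CPM. Young female control replicate 2, with 71 of 82 genes above its group mean, had the lowest nuclear long RNAs of its group (2684 CPM) and the highest mitochondrially encoded mRNAs (59081 CPM). Young female day 1 replicate 3 had 11 of 82 genes above its group mean and a summed level of 4477 CPM. Its nuclear long RNAs (5378 CPM) and mitochondrially encoded mRNAs (29799 CPM) were the highest of its group. The part of these differences in the levels of the ribosomal protein genes was not tested. On the log2 scale, a member's SD among libraries of a group was 0.21 in the median, and that of any tested gene 0.14. Reads assigned to genes numbered 17342900 to 28143700 per library. They were worked out by taking the commonest positive CPM value of each library as a single read. Marker genes of neurons were high in every library, with summed levels of 3530 to 4939 CPM. In whole tissue, fewer cells of a type and less RNA per cell cannot be told apart.

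One day after CLP, few ribosomal protein genes were called in any age or sex. Over the 4 comparisons with controls, 2 of 328 member tests passed the call used throughout, an unadjusted p below 0.01 by limma's moderated test on log2(CPM + 1). In young males, 0 of the 82 genes were called, beside 3.7% of all genes tested called higher and 4.34% lower, and 3 members had an unadjusted p below 0.05. Their median log2 change was -0.14, against -0.00 for all genes, with 68 of 82 changes negative, and without control replicate 1 or control replicate 3 there were 4 members called lower. In young females, 0 were called beside 2.42% of all genes higher and 2.34% lower, with 4 members under an unadjusted p of 0.05. The median was -0.22, against -0.02 for all genes, and 75 of 82 changes were negative. In the median member, young female control replicate 2 deviated from its group mean by 0.42 and day 1 replicate 3 by -0.43. Without young female control replicate 1 there were 3 called lower, and without day 1 replicate 2 there was 1. In old males, 1 member fell, beside 3.79% of all genes higher and 4.69% lower.

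That gene was Rpl29, a large-subunit protein. It was at 87.7, 101, 105 and 81.1 CPM in old male controls and at 71.5, 77.5, 71.8 and 81.9 CPM on day 1. The groups overlapped by a single library, and the log2 change was -0.30 ± 0.08 (SE; limma, adjusted p = 0.048), and -0.29 and still called as a sum with copies. Leaving out control replicate 4 gave 6 members called higher and 1 lower, control replicate 3 gave 2 higher and day 1 replicate 4 gave 1 higher and 3 lower.

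Old females showed the widest transcriptome response on day 1, with 12.7% of all genes called higher and 14% lower, yet 1 of the 82 members was called. This was Rps4l, a retained copy of the small-subunit gene Rps4x that GENCODE annotates as a transcribed processed pseudogene at chr6:148354656-148355598. Rps4l was at 11.5, 21.9, 15.3 and 15.3 CPM in old female controls and at 27.6, 21.5, 37.4 and 32.5 CPM on day 1. Day 1 libraries were higher except for 1 that overlapped the highest control. The log2 change was 0.86 ± 0.19 (adjusted p = 0.0059), and it has no copies to sum. Its ratio to Rps4x was 0.172 ± 0.034 (SD, n = 4) in controls and 0.312 ± 0.056 (SD, n = 4) on day 1. Rps4l shares only 14.9% of its 50-base stretches with other annotated genes. By day 4 it was at 19.4, 26.4 and 23.1 CPM, between the 2 groups, and its log2 change from control was 0.52 ± 0.18 (adjusted p = 0.22, not called). Leaving out single old female libraries gave 1 to 4 members called higher on day 1, with 4 without day 1 replicate 3, 3 without day 1 replicate 4, and 2 without control replicate 3 or day 1 replicate 2. Without day 1 replicate 1 there was 1 called higher and 1 lower.

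On day 4, the ribosomal protein genes of old males moved in both directions. Of the 82 members, 20 rose and 6 fell relative to controls, beside 19.7% of all genes called higher and 22% lower. As shares, 24.4% of members rose and 7.32% fell. With 41.7% of all genes and 31.7% of members called, the total is no higher than the background. The median member changed by 0.10 and the median gene by -0.02 on the log2 scale. The large subunit had 13 rises and 3 falls among 46 genes, and the small subunit 7 and 3 among 36. In 22 of the 82 members the 4 control and 4 day 4 libraries did not overlap, where this held for 47.1% of all genes tested. Leaving out any 1 library gave 14 to 24 members called higher and 3 to 15 lower. The day 4 libraries were uneven, with 79 of the 82 members above the group mean in replicate 3 and 10 in replicate 5. Replicate 3 also had the highest summed level of its group (8038 CPM) and the highest choroid plexus markers (2591 CPM). The part of these differences in the calls was not tested.

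**Figure D2:**
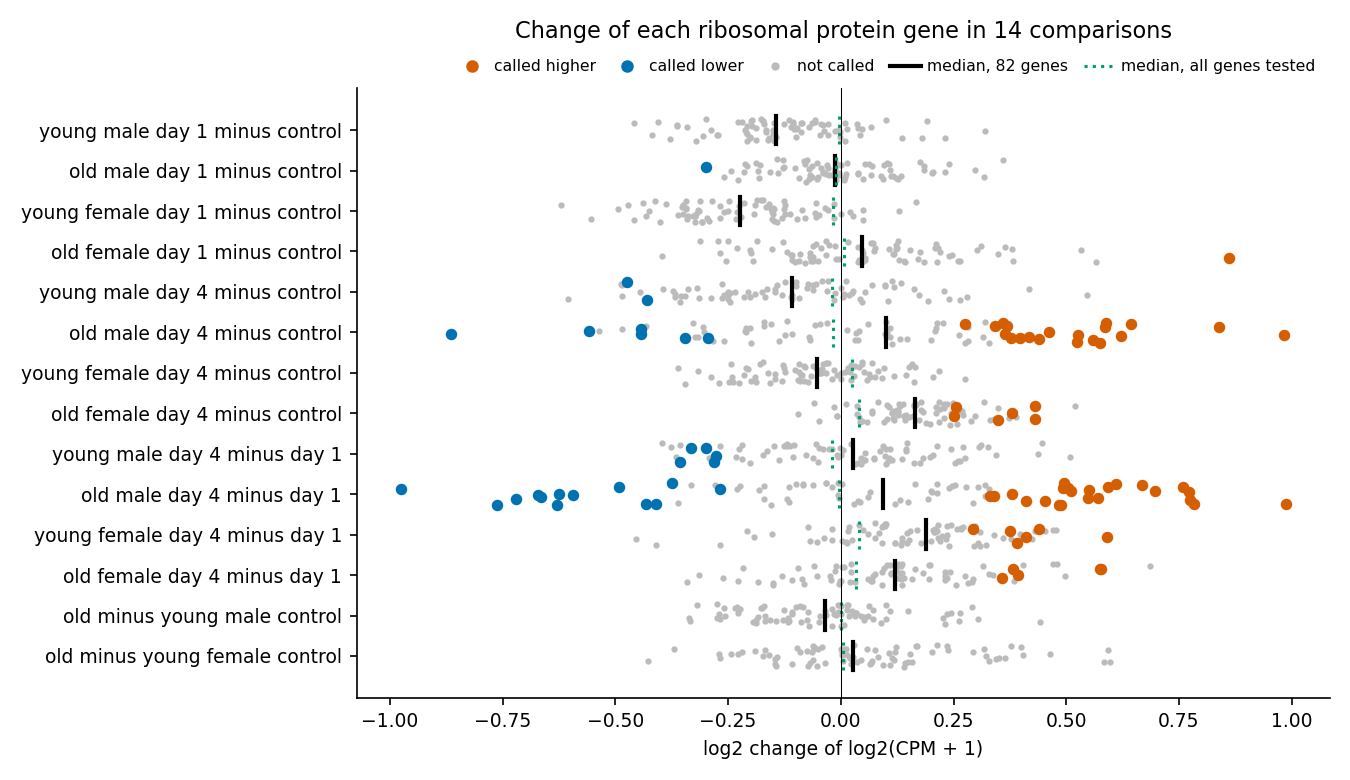
Log2 change of each of the 82 ribosomal protein genes (x axis, change of log2(CPM + 1)) in 14 comparisons of 2 groups (y axis). Coloured points passed an unadjusted p below 0.01, black bars mark the median of the 82 genes and dotted bars the median of all genes tested. Old males on day 4 have 20 genes called higher and 6 lower against controls, and 0 to 6 genes are called in the other 7 comparisons of a septic group with its control.

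The largest rises in old males were in large-subunit genes. Rpl28 was at 7.41, 5.50, 7.46 and 8.54 CPM in controls and at 16.02, 18.8, 11.9 and 14.6 CPM on day 4. Every day 4 library was above every control, and the change was 0.98 ± 0.15 (adjusted p = 4.0e-04). Rpl18 was at 58.3, 44.0, 72.7 and 63.1 CPM in controls and at 103, 118, 111 and 92.6 CPM on day 4. It also separated the groups fully, with a change of 0.84 ± 0.13 (adjusted p = 4.6e-04). Rpl36 was at 21.1, 19.2, 23.2 and 21.1 CPM in controls and at 34.3, 40.9, 31.3 and 28.7 CPM on day 4, a change of 0.64 ± 0.11 (adjusted p = 6.6e-04). On day 1, the log2 changes of these 3 genes were -0.00, 0.07 and -0.14 in the same sex and age, and none was called.

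The P-stalk genes rose together in old males. Rplp0 was at 138, 143, 210 and 187 CPM in controls and at 262, 306, 229 and 216 CPM on day 4, with no overlap and a change of 0.59 ± 0.14 (adjusted p = 0.0046). Rplp1 changed by 0.42 ± 0.13 (adjusted p = 0.021) and Rplp2 by 0.62 ± 0.19 (adjusted p = 0.017), and in both the groups overlapped. In the small subunit, the clearest rise was in Rps26, from 39.9 ± 5.36 to 60.7 ± 9.20 CPM (SD, n = 4 each), a change of 0.59 ± 0.12 (adjusted p = 0.0018). Rpsa, which also binds laminin at the cell surface, changed by 0.28 ± 0.09 (adjusted p = 0.020), the smallest of the called rises.

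The genes that fell in old males on day 4 were led by Rpl22l1, a paralogue of Rpl22 that can take its place in the ribosome. Rpl22l1 was at 18.5, 13.5, 19.6 and 27.1 CPM in controls and at 8.29, 11.4, 9.42 and 11.4 CPM on day 4. All day 4 libraries were below all controls, and the change was -0.86 ± 0.17 (adjusted p = 0.0017). Rpl22 itself changed by -0.11 and was not called, and the ratio of Rpl22l1 to Rpl22 went from 0.245 ± 0.056 to 0.138 ± 0.022 (SD, n = 4 each). Rpl5, which carries 5S ribosomal RNA and binds Mdm2, was at 16.6, 18.2, 17.8 and 19.6 CPM in controls and at 11.8, 15.4, 10.5 and 10.4 CPM on day 4. Its change was -0.56 ± 0.12 (adjusted p = 0.0024), again without overlap. Rps3a1 changed by -0.44 ± 0.10 (adjusted p = 0.0039), and Rps23, Rpl27a and the copy Rps3a2 were also called lower.

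**Figure D3:**
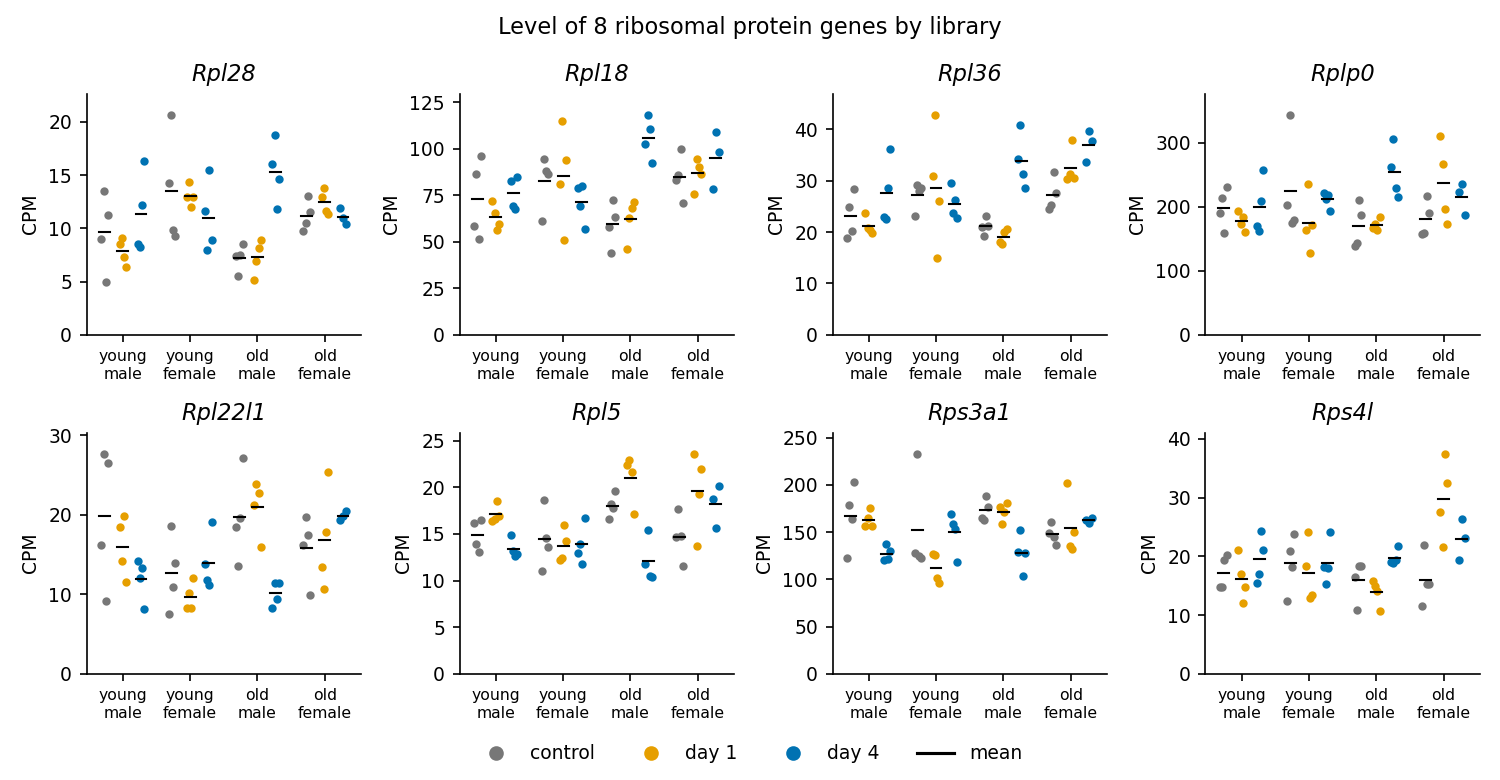
Level of 8 ribosomal protein genes in CPM (y axes, from 0) in each library (points) by sex, age and condition, with group means (bars). In old males, Rpl28, Rpl18, Rpl36 and Rplp0 are higher on day 4 than in every control, and Rpl22l1, Rpl5 and Rps3a1 are lower. Rps4l is highest in old females on day 1.

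Summing each row with its copies changed which genes were called in old males on day 4. Of the 26 called rows, 16 were also called as a sum and 10 were not. Rps3a1 and the copy Rps3a2 share the same sum and both count among the 16. Rpl18 (0.68), Rpl28 (0.48), Rpl36 (0.39), Rplp0 (0.56), Rps26 (0.57), Rpl22l1 (-0.88), Rpl5 (-0.57) and Rps3a1 (-0.30) stayed called as sums. Rpl3, the gene of a core protein near the peptidyl transferase center, went from 75.6 ± 8.95 to 112 ± 18.0 CPM (SD, n = 4 each) as a row, a change of 0.56 ± 0.11 (adjusted p = 0.0020). Rpl3-ps1 went from 422 ± 37.2 to 388 ± 58.5 CPM, and the sum of Rpl3 with its copies changed by -0.01 and was not called. Rpl19 behaved alike, with 0.57 for the row and -0.03 for the sum. For Rpl28, the row and Rpl28-ps1 both stood higher on day 4, with Rpl28-ps1 at 124 ± 13.3 and 169 ± 30.6 CPM. Over all 82 families tested, 14 sums rose and 5 fell, and the median change was 0.03 where that of the rows was 0.10.

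**Figure D4:**
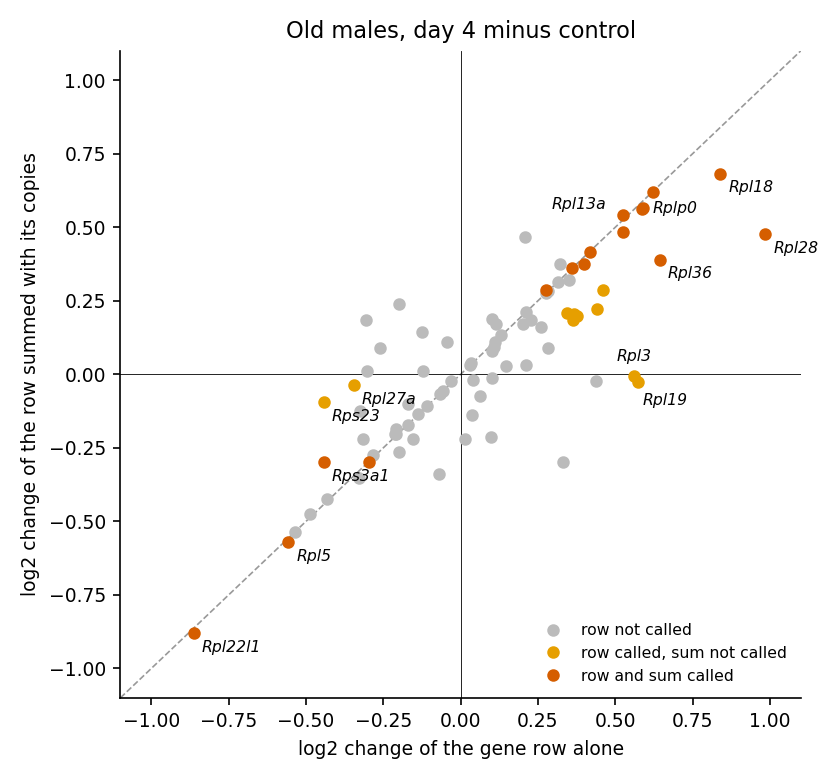
Log2 change in old males on day 4 against controls for each of the 82 gene rows alone (x axis) and for the row summed with its near-identical copies (y axis), with the line of equality dashed. Of the 26 called rows 16 are also called as sums, while Rpl3 (0.56 as a row, -0.01 as a sum) and Rpl19 (0.57 and -0.03) leave it.

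The change in old males on day 4 followed the base composition of the transcripts. Across the 82 genes, GC content and log2 change had a Spearman correlation of 0.52, given as a description across genes that share libraries. The genes called higher had a median GC content of 53.8%, those called lower 46.8% and the others 51.6%. After each library was corrected for a smooth trend on GC content, the share of all genes called went from 41.7% to 12.3%. Among the 26 members called without it, 12 of the 20 rises and 0 of the 6 falls were still called. Rpl28 (0.70), Rpl18 (0.52), Rplp0 (0.49) and Rps26 (0.73) remained called, while Rpl36 (0.17), Rpl22l1 (-0.32), Rpl5 (-0.13) and Rps3a1 (-0.27) did not. In old females on day 4 the same correlation was 0.12, and in young males on day 4 it was 0.40, or 0.38 without replicate 3.

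**Figure D5:**
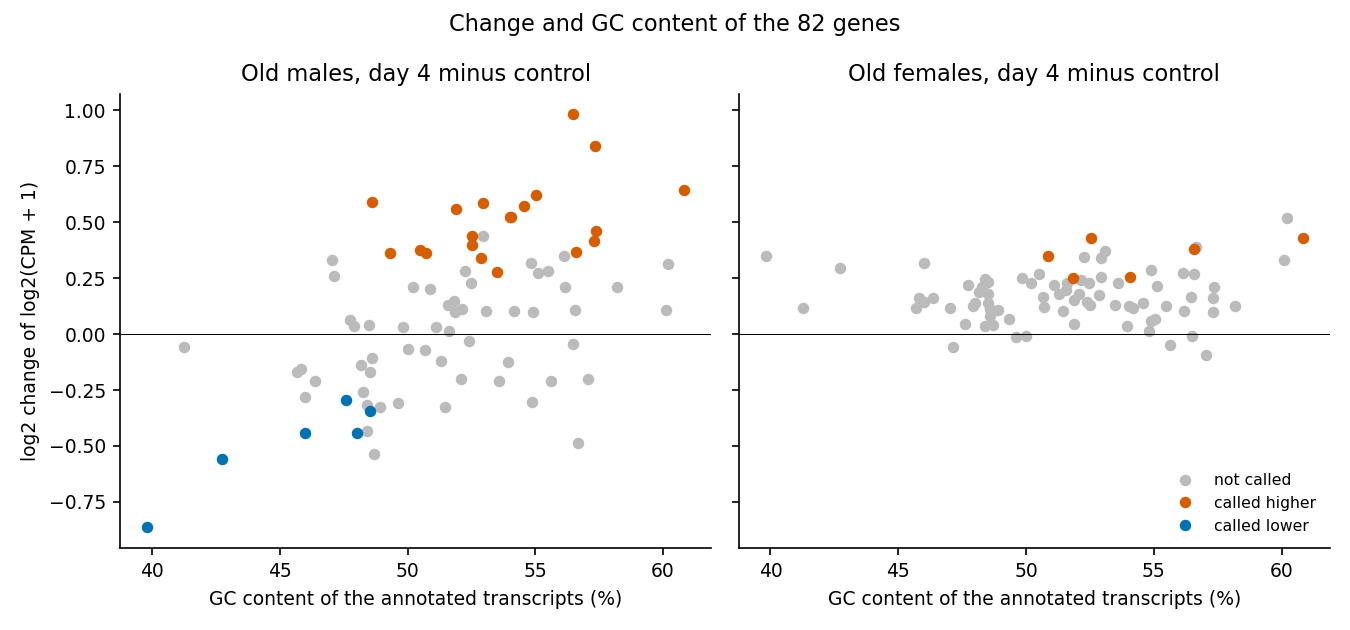
GC content of the annotated transcripts in percent (x axis) and log2 change on day 4 against controls (y axis) for the 82 ribosomal protein genes in old males (left) and old females (right). In old males the 6 genes called lower lie at the AT-rich end, with a median GC content of 46.8%, and the 20 called higher at a median of 53.8%.

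Other transcripts moved in the same old male libraries. Summed mitochondrially encoded mRNAs were 32147 to 42767 CPM in controls and 19474 to 22869 CPM on day 4, and 12 of 12 were called lower. Choroid plexus markers summed to 21.8 to 49.0 CPM in controls and 58.0 to 2591 CPM on day 4, with 3 of 4 tested markers called higher and none of the 6 at 0 in all libraries. Erythroid markers overlapped, at 134 to 211 and 3.87 to 185 CPM, and neutrophil markers summed to at most 1.36 CPM in controls and 3.56 CPM on day 4. Microglia markers (156 to 175 and 179 to 205 CPM) and endothelial markers (117 to 127 and 144 to 184 CPM) did not overlap either. Their part in the ribosomal protein changes was not tested.

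In old females on day 4, the members leaned upward by smaller amounts. Of the 82 changes 76 were positive, with a median of 0.16 against 0.04 for all genes, and 6 members were called higher and 0 lower, beside 2.53% of all genes higher and 2.37% lower. Rps21, a small-subunit protein, was at 60.1, 66.0, 77.2 and 46.8 CPM in controls and at 83.7, 79.4 and 87.2 CPM on day 4. The change was 0.43 ± 0.14 (adjusted p = 0.20). Rpl36 was at 24.4, 25.3, 31.7 and 27.6 CPM in controls and at 33.6, 39.6 and 37.7 CPM on day 4, a change of 0.43 ± 0.11 (adjusted p = 0.14). Rps19bp1 changed by 0.38 ± 0.11 (adjusted p = 0.18). In all 3 genes the libraries of the groups did not overlap, yet none passed an adjusted p of 0.05. Rpl14, Rpl13a and the Rps12 copy Rps12l1 made up the rest, and Rpl14 and Rps12l1 were not called as sums with copies, which left 4 of the 6. Other transcripts moved in these libraries too. Day 4 was lower than every control for summed astrocyte markers (2208 to 2424 against 2636 to 3039 CPM) and microglia markers (157 to 161 against 174 to 192 CPM). Neutrophil markers were low but higher on day 4, as were the summed nuclear genes of the respiratory chain (8028 to 8866 against 7151 to 7950 CPM) and the mitochondrial ribosomal proteins (1745 to 1937 against 1550 to 1734 CPM), all without overlap. Their part in the ribosomal protein changes was not tested. The 6 calls became 0 without old female day 4 replicate 4 and after a correction for transcript length. Under scaling by the median of ratios, 190 of all genes were higher and 376 lower, against 296 and 277, and 2 members were called higher. The calls became 2 without day 4 replicate 7, 3 without control replicate 1 or control replicate 4, and 10 without control replicate 3.

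The young groups showed few member calls on day 4. In young males 2 genes fell and 0 rose, beside 2.04% of all genes higher and 1.37% lower. Rps3a2 was at 88.3, 137, 112 and 150 CPM in controls and at 88.6, 89.0, 77.8 and 88.3 CPM on day 4, a change of -0.47 ± 0.14 (adjusted p = 0.27). Rpl7, which stabilizes the large subunit, changed by -0.43 ± 0.14 (adjusted p = 0.29). In both genes the lowest control lay within the range of the day 4 libraries. Without young male day 4 replicate 3, the library with female-type Xist, the changes were -0.43 for Rps3a2 and -0.40 for Rpl7 and 0 members were called. As sums with copies, Rpl7 was called and Rps3a2 was not. There were also 0 without control replicate 2 or day 4 replicate 2, 1 higher without control replicate 4 or day 4 replicate 1, 1 lower without day 4 replicate 4, 6 lower without control replicate 1 and 11 lower without control replicate 3. In young females 0 members were called, beside 0.462% of all genes higher and 0.351% lower, and 1 had an unadjusted p below 0.05. Without young female control replicate 1 there was 1 called lower.

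Between day 1 and day 4, old males again showed most calls. There 23 members were higher on day 4 and 13 lower, beside 23% of all genes in each direction. Rpl28 (0.99 ± 0.16), Rpl36 (0.78 ± 0.11) and Rpl3 (0.77 ± 0.12) had the largest rises without overlap, and Rpl22l1 (-0.98 ± 0.14), Rpl5 (-0.76 ± 0.13) and Rpl39 (-0.72 ± 0.13) the largest falls, all with an adjusted p of 9.0e-04 or lower. Both comparisons share the day 4 libraries. As sums with copies 25 of the 36 were called, and Rpl3 was at -0.00 and not called. Rpl39, one of the smallest ribosomal proteins, was at 25.0, 31.7, 27.8 and 22.8 CPM on day 1 and at 12.2, 19.1, 16.5 and 15.95 CPM on day 4.

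In young males 5 members fell from day 1 to day 4 and 0 rose, beside 8.05% of all genes higher and 6.3% lower. Rps3a1 was at 156, 165, 176 and 156 CPM on day 1 and at 121, 138, 121 and 130 CPM on day 4. The change was -0.36 ± 0.07 (adjusted p = 0.016), and Rpl5 (-0.33 ± 0.09, adjusted p = 0.039), Rps3a2 (-0.30 ± 0.07, adjusted p = 0.026), Rpl7 and Rps27rt also fell without overlap. All 5 were also called as sums with copies, where Rps3a1 and Rps3a2 share the same sum. Without young male day 4 replicate 3, Rps3a1 was at -0.33, Rpl5 at -0.31, Rps3a2 at -0.25 and Rpl7 at -0.26, all called, and Rps27rt at -0.25 was not. In all there were then 4 lower and 1 higher, and without day 1 replicate 3 there were 2 lower. After the GC correction the values for Rpl5 (-0.12) and Rps3a2 (-0.20) were no longer called.

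In females the calls from day 1 to day 4 were all rises. In young females 6 members rose and 0 fell, beside 4.51% of all genes higher and 2.8% lower. Rpl27a, a large-subunit protein, was at 28.7, 27.9, 29.3 and 32.0 CPM on day 1 and at 46.6, 39.3, 37.2 and 59.3 CPM on day 4. Its change of 0.59 ± 0.13 passed adjustment (adjusted p = 0.043), while that of Rps4x (0.38 ± 0.11, adjusted p = 0.12) did not. As sums with copies 2 of the 6, among them Rpl27a (0.30), were called. Under scaling by the median of ratios, 337 of all genes were higher and 519 lower, against 527 and 327, and 3 members were higher and 1 lower. The count was 15 without young female day 1 replicate 2, 3 without day 1 replicate 1 or day 1 replicate 4, and 1 without day 4 replicate 1. In old females 5 rose and 0 fell, beside 13.5% of all genes higher and 9.52% lower. Rps19bp1 changed by 0.58 ± 0.15 (adjusted p = 0.020), Rpl27a by 0.57 ± 0.15 (adjusted p = 0.020) and Rps12l1 by 0.38 ± 0.10 (adjusted p = 0.018). As sums with copies 4 of the 5 were called, with Rpl27a at 0.35. The count was 11 without old female day 1 replicate 4, 2 without day 4 replicate 2 and 1 without day 4 replicate 4.

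Age alone gave no member calls among controls. In males, 0 of 82 genes were called in old against young controls, beside 3.33% of all genes higher and 5.04% lower, with 2 members under an unadjusted p of 0.05. In females, 0 were called beside 0.89% higher and 0.539% lower, with 4 under 0.05. The median member changed by -0.03 in males and 0.03 in females. Leaving out young male control replicate 4 gave 4 called higher, and leaving out replicate 3 or 1 gave 3 or 2 lower. Leaving out old female control replicate 4 gave 3 higher, young female control replicate 2 gave 2 higher, and young female control replicate 3 gave 1 lower.

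Whether the response itself differed between ages or sexes was tested as a difference of changes. Between old males and old females on day 4, 6 members had a higher change in females and 3 a higher change in males, beside 9.98% and 4.91% of all genes. Rpl22l1 differed by 1.21 ± 0.27 (female change minus male change, adjusted p = 0.019). It was at 16.1, 19.7, 17.4 and 9.95 CPM in old female controls and at 19.3, 19.8 and 20.4 CPM on day 4, overlapping only with the highest control, and was not called in females. Rpl5 differed by 0.86 ± 0.19 (adjusted p = 0.019), Rpl28 by -0.99 ± 0.20 (adjusted p = 0.017) and Rpl18 by -0.68 ± 0.20 (adjusted p = 0.040). Rpl28 in females was at 9.79, 10.5, 13.0 and 11.5 CPM in controls and at 11.95, 11.0 and 10.4 CPM on day 4. Summed with copies, 5 of the 9 were called. The difference for Rpl28 was then -0.24 and not called, and that for Rpl3 turned from -0.51 to 0.25, also not called. After the GC correction those for Rpl18 (-0.47) and Rpl5 (0.47) were not called. Scaled by the median of ratios, 868 of all genes were higher and 880 lower where the deposited scaling gave 1167 and 574, and 5 members were higher and 6 lower. With a correction for transcript length, 5 members were higher and 12 lower. The count was 13 and 2 without old male day 4 replicate 3, and 12 and 4 without old female control replicate 2.

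On day 1, 3 members had a higher change in old females than in old males and 0 a lower one, beside 8.28% and 8.17% of all genes. Rps4l differed by 1.04 ± 0.27 (adjusted p = 0.015) and Rpl29 by 0.51 ± 0.13 (adjusted p = 0.014), and Rpl36 was the third at 0.39 ± 0.14. As a sum with copies Rpl36 differed by 0.12 and was not called. The count was 7 without old female day 1 replicate 3 and 5 without day 1 replicate 4.

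Between ages, few members differed in response and none passed an adjusted p of 0.05. In males on day 4, Rpl18 (0.74 ± 0.24, adjusted p = 0.11), Rps26 (0.62 ± 0.20, adjusted p = 0.11) and Rpl6 (0.46 ± 0.16, adjusted p = 0.11) had a higher change in old mice and 0 a lower one, beside 4.76% and 3.96% of all genes. As a sum with copies Rpl6 was not called. Without young male day 4 replicate 3 none of the 3 was called (0.69, 0.61 and 0.46) and 1 other member was. Leaving out any other single library except old male day 4 replicate 8 also moved this count by more than 1.5 times, to between 0 and 12. In males on day 1, 0 members differed, beside 0.18% of all genes higher and 0.334% lower, and 0 had an unadjusted p below 0.05. Without young male control replicate 3 there were 2 higher, and without young male control replicate 4 there was 1 lower. In females on day 1, Rps4l differed by 0.99 ± 0.32 (adjusted p = 0.092), the 1 member called higher and 0 lower, beside 3.7% and 5.17% of all genes. In females on day 4, Rpl36 differed by 0.52 ± 0.16 (adjusted p = 0.97), again 1 higher and 0 lower beside 0.171% and 0.197% of all genes. As a sum with copies Rps4l, which has none, was unchanged and Rpl36 (0.55) was not called. Both single calls were lost on leaving out any of several libraries of either age.

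Over all 20 comparisons, 50 of the 82 members were called at least once and 32 never, where 75% of all genes tested were called at least once. Rpl36 and Rps3a1 were called in 5 comparisons each, and Rpl18, Rpl27a, Rpl29, Rpl5 and Rps4l in 4 each. Some well-known members stayed below the threshold in every comparison with controls. Rps6, the classical target of S6 kinase, changed by -0.20 to 0.10, and Rpl7l1, a paralogue of Rpl7, by -0.05 to 0.25. For Rps6 this is the row alone, at a mean of 21.9 CPM beside 176 CPM in its copy rows. Rpl41, the shortest protein, changed by -0.34 to 0.28 and Rpl36al, a paralogue of Rpl36a, by -0.34 to 0.20.

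Annotated starts were inspected because the 5′ TOP tract begins at the first transcribed base. RefSeq (GRCm38.p6) gave starts for 59 of the 82 members. A C followed by at least 4 further C or T bases stood exactly at an annotated start in 13 of 59 members (22.0%) and in 3.01% of all 27025 genes, read on the transcribed strand. Within 5 bases of a start it was found in 28 of 59 members (47.5%) and in 21.2% of all genes. Windows of 30 bases, 15 before and 15 from the start, are shown for some genes called in old males on day 4. Rpl36 had no matched start, and Rps26, which has a tract near a start, is not shown. The tract is in capitals.
Rpl28 (rose), chr7:4792950-4792979, plus strand: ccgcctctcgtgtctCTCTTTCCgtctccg
Rpl18 (rose), chr7:45718056-45718085, plus strand: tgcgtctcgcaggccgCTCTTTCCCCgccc
Rplp2 (rose), chr7:141447636-141447665, plus strand: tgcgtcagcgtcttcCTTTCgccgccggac
Rplp0 (rose), chr5:115559452-115559481, plus strand: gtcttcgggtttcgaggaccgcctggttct
Rpl22l1 (fell), chr3:28805493-28805522, plus strand: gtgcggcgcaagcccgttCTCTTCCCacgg
Rpl5 (fell), chr5:107900513-107900542, plus strand: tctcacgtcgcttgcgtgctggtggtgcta
Rps3a1 (fell), chr3:86142654-86142683, minus strand: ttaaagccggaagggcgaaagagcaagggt
Rpl28 and Rplp2 had the tract at the annotated start, Rpl18 and Rpl22l1 within 5 bases of it, and Rplp0, Rpl5 and Rps3a1 had none in the window searched. Exactly at a start it was present in 3 of 16 matched genes that rose in old males on day 4, 0 of 5 that fell and 10 of 38 that were not called. Near a start it was present in 10 of 16 matched genes that rose in old males on day 4, 3 of 5 that fell and 15 of 38 that were not called. Annotated starts may lie some bases from the true ones, so these are counts of letters only.

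Genes that work with the ribosomal proteins were described from lists for which no list test was made. Their counts stand beside 19.7% of all genes higher and 22% lower in old males on day 4, 12.7% and 14% in old females on day 1, and 13.5% and 9.52% in old females from day 1 to day 4. Several counts, such as those of assembly and respiratory chain genes in old males, are near or below these shares. Among 18 other mRNAs with a TOP tract, 3 were called higher and 2 lower in old males on day 4, with a median of 0.05, and Eef2, the translocation factor, changed by 0.40 ± 0.07 (adjusted p = 9.4e-04). Eif3e, an initiation factor subunit, changed by -0.61 in the same comparison. In old females on day 1, 5 rose and 1 fell. Ribosome assembly and rRNA synthesis were covered by 52 genes, of which 9 rose and 8 fell in old males on day 4. The nucleolar factors Ncl (-0.33) and Gnl3 (-0.52) were lower and Fbl (0.48) was higher. In old females on day 1, when 1 ribosomal protein gene was called, 10 assembly genes were higher and 2 lower, with Gnl3 at 0.72 and Fbl at 0.42.

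Of 52 initiation factor genes, 4 rose and 17 fell in old males on day 4, while 12 rose and 1 fell in old females on day 1. Among 37 tested regulators of the translation of ribosomal protein mRNAs, 9 were higher and 8 lower in old males on day 4. Ddit4, an inhibitor of mTORC1, changed by 1.29 ± 0.14 there (adjusted p = 1.2e-04) and by 1.65 ± 0.15 in old females on day 1 (adjusted p = 1.8e-05). Rps6kb1, an S6 kinase, changed by -0.44 and Larp1, which binds TOP tracts, by 0.24 in old males on day 4. The 79 mitochondrial ribosomal proteins included 11 that rose and 9 that fell in old males on day 4, and from day 1 to day 4 in old females 22 rose and 2 fell. The 76 nuclear genes of the respiratory chain had 13 higher and 10 lower in old males on day 4. The ribosomal scaffold Rack1 changed by 0.30 ± 0.09 in old males on day 4 (adjusted p = 0.015).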

How the data were processed

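Poly(A) RNA from hippocampus was sequenced on the Ion Proton, aligned with STAR to mm10 and quantified in Partek Flow by the authors, who deposited CPM values scaled by trimmed means of M-values. The assignment of reads shared between near-identical genes is not stated there. The CPM steps did not give whole reads for the members, so no count test was run. The 11691 genes averaging 5 CPM or more were fitted with limma 3.58.1 (R 4.3.3) with a variance trend on log2(CPM + 1), 1 fit per comparison, and changes are on that scale, which understates low genes. A call is an unadjusted p below 0.01, and Benjamini-Hochberg adjustment covers all of them. The fit was also run on simulated data with independent noise and the same SD of a gene in every group. Such data cannot show how shifts shared by the members of a library affect the calls. Where nothing in the labels says that libraries are separate animals, p-values measure only the spread between these libraries. Replicate numbers were not treated as pairs in the main fits. Copies were found from shared 50-base stretches of GENCODE M21 transcripts. Named genes were those called without overlap that had the 3 largest rises and falls per comparison (2 each for differences of changes), the 3 highest, lowest and most often called members, rows at the minimum, and a preset list of members such as the P-stalk genes. Rpl29, Rps4l, Rpl7, Rps26 and Rpl19, most genes of the other lists (for which the rule gave 2 comparisons in young females) and 5 members in the levels per kilobase were named after their values were seen. Some genes that the rule names are not reported here. The members and lists were chosen with earlier results of these data known. Alternatives were another pseudocount, 2 filters, other scaling, GC and length corrections, 1 fit of all groups, an unmoderated F test, adjusted p, a replicate block, sums with copies and leaving out each library.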

Additional observations from a re-analysis of the deposited data

Results flagged for a closer look

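In young males on day 4, Rps3a2 was at 77.8 CPM in replicate 3 and at 88.3 to 89.0 CPM in the other 3 libraries. Its distance from the nearest library was 0.938 of the range of the group, above Dixon's critical value at the 95% level. This was 1 of 71 groups of values examined in this way, where chance alone gives about 1 in 20. The groups were of named genes and of the summed level of the members. Replicate 3 is the library with female-type Xist.

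The change after CLP differed between groups in 17 member tests (limma, unadjusted p below 0.01). Between old and young males on day 4, Rpl18 differed by 0.74, Rps26 by 0.62 and Rpl6 by 0.46, all with an adjusted p of at least 0.11. Between old and young females, Rps4l differed by 0.99 on day 1 (adjusted p = 0.092) and Rpl36 by 0.52 on day 4 (adjusted p = 0.97). Between old females and old males on day 1, Rps4l differed by 1.04, Rpl29 by 0.51 and Rpl36 by 0.39, and the adjusted p of Rpl36 was 0.061. As sums with copies, Rpl36 on both days and Rpl6 were not called, with Rpl36 at 0.12 for the sexes on day 1. Between old females and old males on day 4, the change was higher in females for Rpl22l1 (1.21), Rpl5 (0.86), Rps3a1 (0.58), Rpl27a (0.52), Rps4x (0.40) and Rpl4 (0.33). It was lower in females for Rpl28 (-0.99), Rpl18 (-0.68) and Rpl3 (-0.51). Of these 9, Rpl4 had an adjusted p of 0.066 and the others were at or below 0.049. As sums with copies, Rpl28, Rpl27a and Rps4x were not called, and Rpl3 turned to 0.25 and was not called.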

How the results depend on the processing

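With a pseudocount of 0.1, 34 of 34 named changes kept their direction and call, and with the GC correction 16 did and 18 lost the call. Summed with copies, the change of Rpl3 in old males from day 1 to day 4 became -0.0035, the 1 sign change among these 34. Among all called members the sign also turned for Rpl3 and Rpl19 in old males on day 4, for Rpl11 and Rps13 in old males from day 1 to day 4, and for Rpl3 in sex by sepsis on day 4, none called as a sum, and with the GC correction for 2 members in old males from day 1 to day 4. The numbers of members called that moved by more than 1.5 times follow, and their cause was not tested except where fewer genes were tested. In old males on day 1 there were 0 with no minimum mean, the unmoderated F test or 1 fit of 12 groups. In young females on day 1, 1 fit gave 3. In old females on day 1 there were 0 with a minimum mean of 50 (44 members tested) or the F test, 2 with the median of ratios, copies or adjusted p, 3 with GC correction or 1 fit and 4 with length correction. In young males on day 4 there were 0 with no minimum, GC correction, adjusted p or the F test. In old males on day 4 there were 13 with a minimum of 50, 11 with the F test and 14 with 1 fit. In old females on day 4 there were 2 with the median of ratios and 0 with length correction, adjusted p or 1 fit. From day 1 to day 4, young males had 8 with copies and 0 with 1 fit, and old males 18 with a minimum of 50 and 19 with 1 fit. Young females had 3 with no minimum or length correction and 1 with adjusted p or the F test. Old females had 3 with no minimum, a minimum of 50, the median of ratios, GC or length correction or 1 fit, 8 with copies and 0 with the F test. For age in male controls, GC correction gave 1. For age by sepsis in males on day 4 there was 1 with no minimum, 6 with length correction and 0 with adjusted p or the F test. In females on day 1 there were 0 with no minimum, a minimum of 50, GC correction, adjusted p or the F test, 2 with copies and 3 with 1 fit. In females on day 4 there were 0 with a minimum of 50, GC or length correction, copies, adjusted p or 1 fit. For sex by sepsis in old mice there was 1 with a minimum of 50 or 1 fit on day 1, and on day 4 there were 5 with a minimum of 50, 17 with length correction and 3 with 1 fit.

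Leaving out single libraries gave 0 to 4 calls in young males, 1 to 7 in old males, 0 to 3 in young females and 1 to 4 in old females on day 1. On day 4 the ranges were 0 to 11, 19 to 31, 0 to 1 and 0 to 10 in the same order, and from day 1 to day 4 they were 2 to 7, 33 to 41, 1 to 15 and 1 to 11. For age in controls they were 0 to 4 in males and 0 to 3 in females. For age by sepsis they were 0 to 2 and 0 to 12 in males and 0 to 2 and 0 to 2 in females, on days 1 and 4. For sex by sepsis in old mice they were 2 to 7 on day 1 and 6 to 16 on day 4.

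Deviations of libraries with the same replicate number correlated with either sign (r of -0.589 to 0.491). Between young males on day 1 and day 4 all were positive (r of 0.0571 to 0.339). With the replicate block on day 1 old males had 2 members called and young females 5, and there were 4 in young males on day 4, 12 in young males and 13 in young females from day 1 to day 4, and for age by sepsis on day 4 males had 5 and females 2. No paired analysis was possible for sex by sepsis in old mice on day 4 because the 4 groups share fewer than 2 numbers.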
